A study of Homo sapiens with 2 samples.

Results

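The mitochondrial genome of ARP1 cells was examined as a set of 37 genes, chosen as every row of the deposited gene table whose symbol begins with MT- and whose chromosome is MT. They are 37 of 60612 rows and comprise 13 messenger RNAs (mRNAs), 2 ribosomal RNAs (rRNAs) and 22 transfer RNAs (tRNAs). ARP1 is an established human myeloma line (myeloma is a plasma cell tumour), and the labels give no genotype beyond the line. One library was labelled VCP knockdown and 1 was labelled control, and the labels name no reagent, dose or time for either. Per the labels, poly(A) RNA was isolated from both and sequenced as paired ends, although the same protocol also speaks of poly(A)- RNA and of adipose tissue. VCP encodes an ATPase that pulls ubiquitin-marked proteins out of membranes and complexes, and the comparison asks which transcripts differ when it is knocked down.

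Human mitochondrial DNA is a small circle read on both strands into long precursor RNAs. Transfer RNAs sit between most of the other genes, and cutting them out at both ends releases the mRNAs and rRNAs. The genes annotated on the plus strand are the 2 rRNAs, 12 mRNAs and 14 tRNAs, and those on the minus strand are MT-ND6 and 8 tRNAs. The 13 mRNAs encode core membrane subunits of complexes I, III, IV and V of the respiratory chain, which in turn depend on many more subunits imported from the cytosol. Most mitochondrial mRNAs carry a short poly(A) tail, the rRNAs end in a few adenines, and tRNAs carry none beyond a short added end, so poly(A) selection does not recover these classes equally.

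Each group held a single library, so replicate error is unknown and nothing was tested. Square brackets hold 95% intervals for counting error alone, which treat fragments as independent although PCR copies are not. Levels are FPKM (fragments per kilobase of transcript, scaled to library size), which are per length. For a sum over genes, the ratio is that of summed FPKM. Its interval takes its relative width from summed counts, in which long genes weigh more, so it only approximates the counting error of that ratio. Each pair of values gives the library labelled VCP knockdown first, and a ratio is that library divided by the library labelled control. Summed counts were 68872657 and 72566092. VCP (ENSG00000165280) went against the label, at FPKM 65.9 against 47.7, a ratio of 1.38 [1.33 to 1.43], so a direction given here follows the labels, and lower VCP RNA was not seen. If the labels were exchanged, every ratio would be inverted and every order of ratios reversed, which could not be checked here. All 8 plasma cell markers were detected, with a summed FPKM of 1618 against 1836. The summed FPKM of 5 lists of 4 markers each, for T, myeloid, stromal, epithelial and adipocyte cells, lay between 0.930 and 8.84, and CD3D, COL1A2, KRT19, ADIPOQ, FABP4 and PLIN1 had a count of 0 in both libraries. PPARG, at 7.64 against 8.84, made up the whole sum of the adipocyte list. The others that reached FPKM 1 were TRAC (1.55 against 2.51), KRT18 (1.66 against 1.61) and CD68 (1.10 against 1.41).

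Mitochondrial transcripts took a smaller part of the library labelled VCP knockdown. All 37 together made up 23.4% of summed FPKM there and 26.2% in the library labelled control. As shares of summed counts, which do not weight short genes up, the values were 6.90% and 8.02%. The 3 classes were not equally far apart. The 2 rRNAs summed to a ratio of 0.700 [0.694 to 0.706], the 13 mRNAs to 0.875 [0.873 to 0.877] and the 22 tRNAs to 0.981 [0.949 to 1.01]. The tRNA interval takes several counts as 1 fragment, as in longer rows. With 1 count taken as 1 fragment, as given below for single tRNAs, the interval is narrower. That narrower interval was not computed for the tRNA sum, so whether it holds 1 is not known. By gene, 30 of the 37 had a ratio below 1 and 7 above. A log2 ratio, log2((FPKM + 1)/(FPKM + 1)), at or beyond a 1.5-fold difference was reached by 1 member on the lower side, MT-RNR2, and by 0 on the higher side. Over the 11645 symbols that reached FPKM 1 in either library, 5.87% were at least 1.5-fold lower and 4.53% at least 1.5-fold higher, so the members' share past that size was no larger than the background. What the members showed was smaller differences, most of them in 1 direction. Of the 11645 symbols, 52.8% had a log2 ratio below 0. The intervals of 21 of the 37 members held 1, and 5 members, all tRNAs, changed sign when the libraries were scaled by median-ratio size factors. With 1 count taken as 1 fragment for the tRNAs, 16 intervals held 1.

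**Figure D1:**
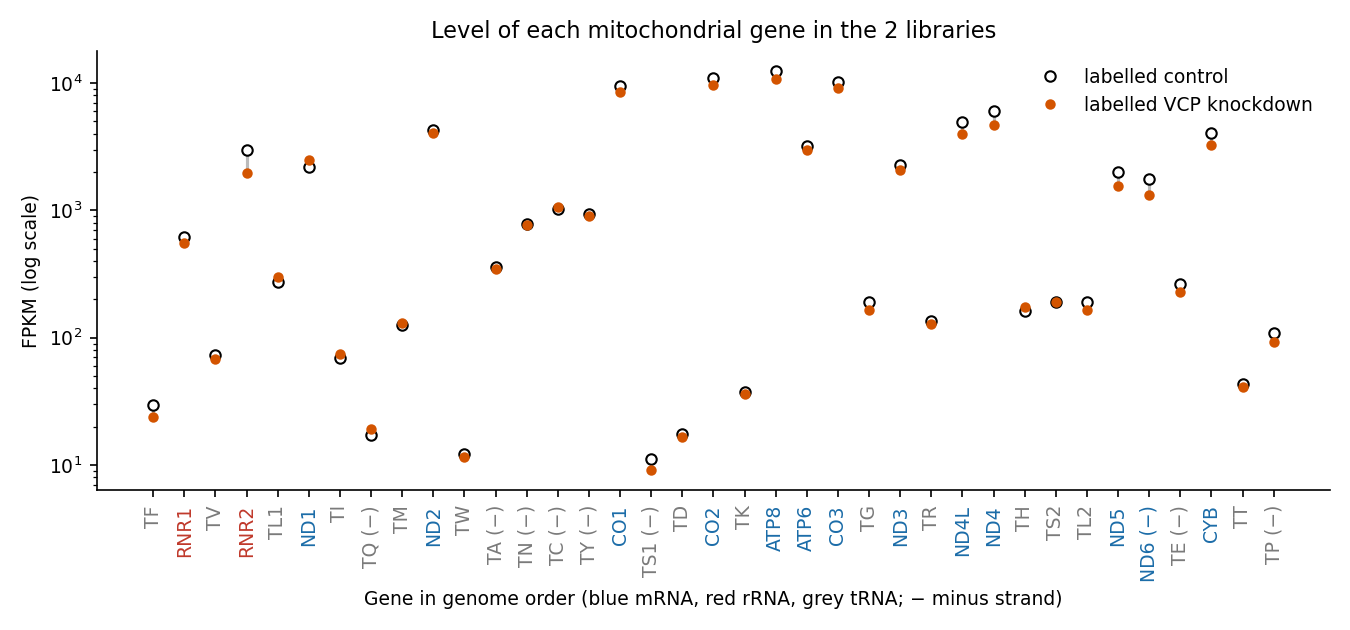
FPKM on a log axis for all 37 mitochondrial genes in genome order, with open circles for the library labelled control and filled circles for the library labelled VCP knockdown. The mRNAs lie between 1333 and 12520, the rRNAs between 558 and 2995, and the tRNAs between 9.06 and 1072, and the symbols lie furthest apart at MT-RNR2.

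The 2 rRNAs are the RNAs of the mitochondrial ribosome, and they differed from each other. MT-RNR1 (ENSG00000211459, positions 648 to 1601), the small-subunit rRNA, had an FPKM of 558 against 617, a ratio of 0.905 [0.882 to 0.929]. MT-RNR2 (ENSG00000210082, positions 1671 to 3229), the large-subunit rRNA, had 1970.0 against 2995, a ratio of 0.658 [0.651 to 0.664] or 1.52-fold lower. It was the lowest ratio among the 37. The level of MT-RNR2 was 4.86 times that of MT-RNR1 in the library labelled control and 3.53 times in the library labelled VCP knockdown. The log2 ratio of MT-RNR2 was -0.60, and 5.38% of measured genes had one as low. It lay just past the 1.5-fold limit. It was -0.58 after rescaling to the same summed FPKM or to a median ratio of 0, and -0.54 with median-ratio size factors, none of which reaches 1.5-fold.

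The gene after MT-RNR2 stood on the other side of 1. MT-ND1 (ENSG00000198888, positions 3307 to 4262) encodes a membrane-arm subunit of complex I next to the quinone site. Its FPKM was 2469 against 2206, a ratio of 1.12 [1.11 to 1.13], the one mRNA ratio above 1. MT-ND1 stood below MT-RNR2 in the library labelled control (0.736 of its level) and above it in the library labelled VCP knockdown (1.25 times). Between them lies only the leucine tRNA gene MT-TL1 (ENSG00000209082), with FPKM 299 against 272, a ratio of 1.10 [0.964 to 1.26]. Its interval holds 1. It holds the binding site of the termination factor MTERF1, and its sequence is shown because the ratio turns from the lowest to the highest mRNA or rRNA value across it. The GENCODE 29 sequence at chrM:3230-3304, plus strand, with no letter marked, is as follows.
MT-TL1: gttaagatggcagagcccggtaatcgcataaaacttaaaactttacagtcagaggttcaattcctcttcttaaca

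Along the plus strand the mRNA ratios were lower toward the end of the precursor. After MT-ND1, MT-ND2 (ENSG00000198763), another complex I subunit, had FPKM 4091 against 4286 and a ratio of 0.955 [0.946 to 0.963]. The 3 complex IV (cytochrome c oxidase) mRNAs followed closely on each other in ratio. MT-CO1 (ENSG00000198804), the catalytic subunit, had 8574 against 9519 and a ratio of 0.901 [0.896 to 0.905]. MT-CO2 (ENSG00000198712), which takes electrons from cytochrome c, had 9748 against 10965 and a ratio of 0.889 [0.883 to 0.895]. MT-CO3 (ENSG00000198938) had 9208 against 10150, a ratio of 0.907 [0.901 to 0.914]. These 3 are among the 4 highest mRNAs of both libraries.

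The other member of the top 4 belongs to complex V, the ATP synthase. MT-ATP8 (ENSG00000228253) had the highest level of all members, FPKM 10722 against 12520, with a ratio of 0.856 [0.846 to 0.867]. MT-ATP6 (ENSG00000198899), the proton channel subunit, had 2983 against 3225 and a ratio of 0.925 [0.913 to 0.937]. MT-ND3 (ENSG00000198840), of complex I, had 2065 against 2271, a ratio of 0.909 [0.889 to 0.930]. From MT-CO1 to MT-ND3 the 6 ratios thus stayed between 0.856 and 0.925.

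The last 4 plus-strand mRNAs were lower as a block. MT-ND4L (ENSG00000212907) had FPKM 3984 against 4955, a ratio of 0.804 [0.791 to 0.817]. MT-ND4 (ENSG00000198886) had 4693 against 6001, a ratio of 0.782 [0.777 to 0.788], and MT-ND5 (ENSG00000198786) had 1563 against 2000 (1999.9), a ratio of 0.781 [0.773 to 0.790]. These 3 encode complex I subunits of its membrane arm, where MT-ND4 and MT-ND5 form proton-pumping modules. MT-CYB (ENSG00000198727), cytochrome b and the single mitochondrial subunit of complex III, had 3283 against 4089, a ratio of 0.803 [0.796 to 0.811]. No interval of these 4 reached that of any earlier plus-strand mRNA. Summed over 4 genes at a time, the ratio was 0.922 [0.919 to 0.926] for MT-ND1 to MT-CO2, 0.887 [0.882 to 0.892] for MT-ATP8 to MT-ND3 and 0.793 [0.790 to 0.797] for MT-ND4L to MT-CYB. This division into sets of 4 was made after the values were seen.

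**Figure D2:**
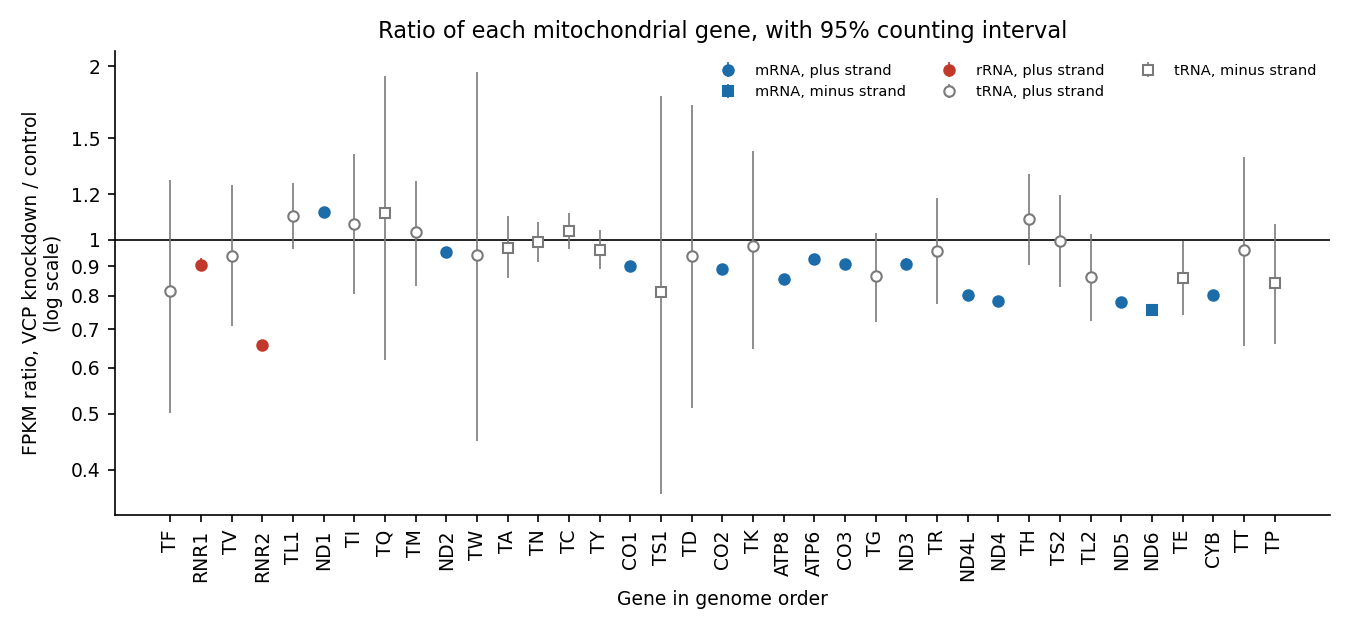
FPKM ratio of the library labelled VCP knockdown to the library labelled control on a log axis, for each gene in genome order, with 95% counting intervals (hidden by the symbol for most mRNAs). Filled symbols are mRNAs and rRNAs, open ones tRNAs, and squares the minus strand; the mRNA ratios run from 1.12 at MT-ND1 to between 0.756 and 0.804 from MT-ND4L to MT-CYB.

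Across the 12 plus-strand mRNAs, Spearman's rho of the log2 ratio with the start position was -0.78 and Pearson's r was -0.84. This is a description, since these genes come from 1 precursor and 1 pair of libraries. Neighbours with overlapping intervals were MT-ATP6 and MT-CO3, MT-CO3 and MT-ND3, and MT-ND4 and MT-ND5. In the mitochondrial rows alone, the other 8 pairs of neighbours differed by more than counting error. Summing the nuclear copies described below put MT-CO1 at 0.891 and MT-CO2 at 0.889, and MT-ATP6 at 0.891 and MT-CO3 at 0.907. No intervals were computed for those sums, so the list of overlapping neighbours may differ there. Over all 13 mRNAs, rho was -0.11 with gene length (207 to 1812 bases), 0.18 with GC content (39.6% to 47.7%) and 0.099 with the level in the library labelled control. Between the same 2 libraries, the 387 measured nuclear genes whose longest coding transcript had a length and GC content in those ranges had a median log2 ratio of 0.05. The median of the mitochondrial mRNAs was -0.17. The 50 nuclear genes that reached FPKM 500 in either library, which are the nuclear genes closest in level to the mitochondrial mRNAs, had a median of -0.08. That of all measured genes was -0.02. Of all measured genes, 52.8% were below 0 and 32.2% were at or below -0.17. With median-ratio size factors the median of the mitochondrial mRNAs was -0.11, and 12 of 13 were below 0 under each scaling run. Several came closer to 0 with these size factors. MT-ND2 had a log2 ratio of -0.0041 in place of -0.07, and MT-ATP6 had -0.05 in place of -0.11. MT-CO1 (-0.09), MT-CO2 (-0.11), MT-CO3 (-0.08) and MT-ND3 (-0.07) also moved by more than 1.5 times. How much RNA quality and coverage along the precursor differed between the libraries was not tested.

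MT-ND6 (ENSG00000198695, positions 14149 to 14673), a complex I subunit, is the single mRNA of the minus strand. It starts its annotated span at the base after MT-ND5 ends, and the strand setting of the library is not given in the sources used here. Reads that run past the annotated end of either gene therefore cannot be told apart by strand. MT-ND6 had FPKM 1333 against 1762, the lowest mRNA level in both libraries and the lowest mRNA ratio, 0.756 [0.740 to 0.773]. MT-ATP8 stood 7.11 times as high in the library labelled control and 8.04 times in the library labelled VCP knockdown. The 9 minus-strand members summed to a ratio of 0.905 [0.888 to 0.922] and the 28 plus-strand members to 0.872 [0.870 to 0.874]. These sums mix classes, since most minus-strand FPKM was from tRNAs and most plus-strand FPKM from mRNAs. Within the mRNAs the order was the other way, with the 12 of the plus strand at 0.878 [0.876 to 0.880] and MT-ND6 at 0.756. The 14 plus-strand tRNAs summed to 0.985 [0.928 to 1.04] and the 8 minus-strand tRNAs to 0.979 [0.941 to 1.02], and these intervals overlap. The 6 minus-strand tRNAs up to MT-CO3 summed to 0.994 [0.954 to 1.04]. The 2 past it, MT-TE and MT-TP, summed to 0.854 [0.752 to 0.967], an interval that overlaps both that of MT-ND6 and that of the 6. On the plus strand the 8 tRNAs up to MT-CO3 summed to 1.04 [0.948 to 1.13] and the 6 past it to 0.949 [0.876 to 1.03]. With 1 count taken as 1 fragment, as given below for single tRNAs, intervals are narrower. They were not computed for these sums, so the overlaps of MT-TE plus MT-TP may not hold in that setting. Whether the intervals of the other tRNA sums given here still hold 1 in that setting is not known either.

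Among overlapping reading frames, 2 pairs are translated from shared mRNAs, and neither of these pairs held 1 ratio. MT-ATP6 and MT-CO3 also share the base at position 9207, and the intervals of their ratios overlapped. MT-ATP8 and MT-ATP6 share 46 bases. The level of MT-ATP8 was 3.59 and 3.88 times that of MT-ATP6, and their ratios between libraries, 0.856 and 0.925, had intervals that did not overlap. MT-ND4L and MT-ND4 share 7 bases and were closer. MT-ND4 stood 1.18 and 1.21 times as high as MT-ND4L, with ratios of 0.782 and 0.804 whose intervals again did not overlap. The junctions of the 2 pairs on shared mRNAs are shown because reads over them belong to both genes. The bases held by both genes are in capitals, read from GENCODE 29 transcripts on the plus strand at chrM:8507-8592 and chrM:10730-10796.
MT-ATP8/MT-ATP6: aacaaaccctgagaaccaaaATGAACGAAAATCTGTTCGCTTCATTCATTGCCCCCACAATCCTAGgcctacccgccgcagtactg
MT-ND4L/MT-ND4: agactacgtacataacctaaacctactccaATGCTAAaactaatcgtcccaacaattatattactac

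Nuclear copies of mitochondrial genes also carried counts. The table holds 408 rows for nuclear copies of mitochondrial genes, of which 10 reached an FPKM of 1. The 6 highest all lie in 1 block of chromosome 1, at GRCh38 positions 629062 to 634922, and are 98.1% to 98.7% identical to their mitochondrial genes. MTATP6P1 (ENSG00000248527, 633696 to 634376) had FPKM 1842 against 2189, which is 61.7% and 67.9% of the level of MT-ATP6. With it added to MT-ATP6, MT-ATP8 stood 2.22 and 2.31 times as high, in place of 3.59 and 3.88. Reads of MTATP6P1 and MT-ATP6 can be told apart only where they cover 1 of 10 differing bases in 681, and the longest stretch without one is 141 bases. Whether MTATP6P1 is transcribed itself in ARP1 was not tested. The 80-base window with the most differences, 4, is shown at chrM:8639-8718 and chr1:633808-633887, both plus strand, with the differing bases in capitals.
MT-ATP6: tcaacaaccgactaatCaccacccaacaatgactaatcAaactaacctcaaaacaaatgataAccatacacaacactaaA
MTATP6P1: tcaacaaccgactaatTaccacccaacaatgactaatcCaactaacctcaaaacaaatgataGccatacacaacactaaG

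The other 5 copies of the block took smaller parts. MTND2P28 had FPKM 417 against 538, a ratio of 0.775 [0.754 to 0.796], at 10.2% and 12.6% of MT-ND2. MTCO1P12 had 359 against 507, a ratio of 0.708 [0.691 to 0.725], at 4.18% and 5.32% of MT-CO1. Both ratios were below that of the mitochondrial gene. MTND1P23 (28.5 against 34.2), MTCO3P12 (22.3 against 32.4) and MTCO2P12 (22.8 against 23.5) held at most 1.55% of the level of their mitochondrial genes. MTCO2P12 was added after its value was seen. MTATP6P1 had a ratio of 0.841 [0.828 to 0.855], also below that of MT-ATP6. When each mRNA was summed with all its nuclear copies, MT-ATP6 moved from 0.925 to 0.891, MT-ND2 from 0.955 to 0.934 and MT-CO1 from 0.901 to 0.891. With copies, MT-ATP6 and MT-CO1 were thus at the same ratio. Each of the other 10 moved by less than 0.01. With the copies, rho of the 12 log2 ratios with gene order was -0.76.

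**Figure D3:**
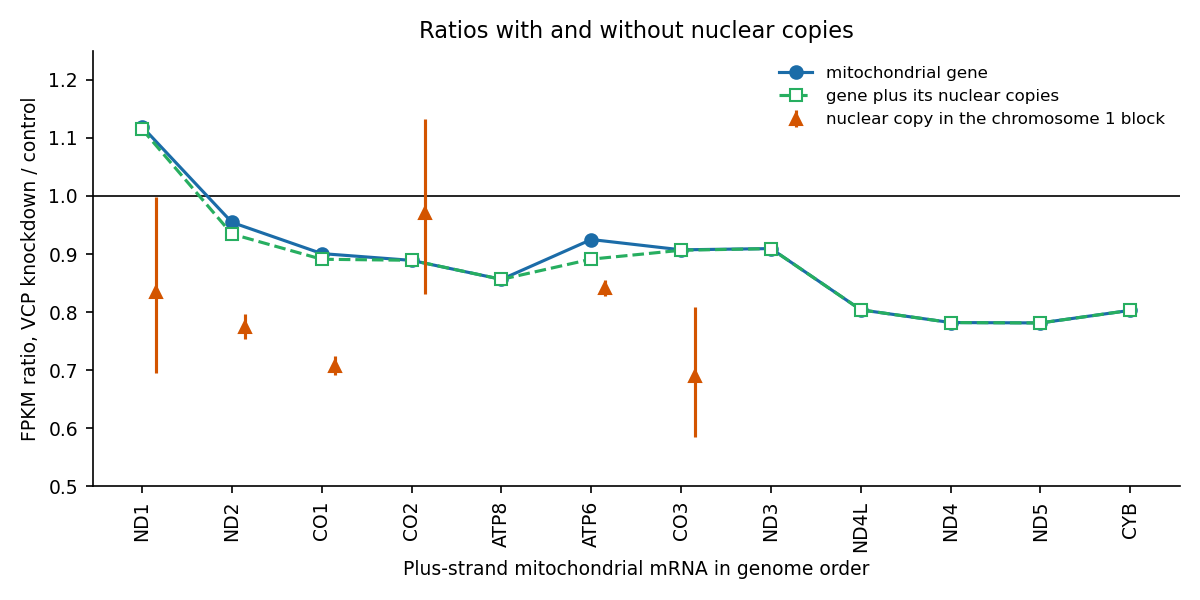
FPKM ratio of the library labelled VCP knockdown to the library labelled control for the 12 plus-strand mRNAs in genome order, alone (circles) and summed with their nuclear copies (squares), and for the 6 copies of the chromosome 1 block with 95% counting intervals (triangles). The copies lie between 0.690 and 0.971, and the summed line differs most from the other at MT-ATP6, 0.891 against 0.925.

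The 22 tRNAs, which bring amino acids to the mitochondrial ribosome, ranged widely in level and little in ratio. They are 59 to 75 bases long, shorter than the insert size in the labels, so a whole insert over one also covers what lies beside it. How much of their signal comes from uncut precursors or neighbouring transcripts was not tested. FPKM ran from 9.06 to 1072 in the library labelled VCP knockdown and from 11.2 to 1035 in the library labelled control. The highest were 4 minus-strand genes side by side between MT-ND2 and MT-CO1. The cysteine tRNA gene MT-TC had 1072 against 1035, the tyrosine gene MT-TY 909 against 946, the asparagine gene MT-TN 771 against 778 and the alanine gene MT-TA 347 against 358. The tryptophan gene MT-TW, next to them on the plus strand, had 11.6 against 12.3, so MT-TC stood 92.8 and 84.5 times as high. This cluster surrounds the origin of light-strand replication. The lowest 4 were the serine gene MT-TS1, with 9.06 against 11.2, MT-TW, the aspartate gene MT-TD, with 16.6 against 17.6, and the glutamine gene MT-TQ, with 19.1 against 17.2. As a share of the mean level of the nearest mRNAs or rRNAs, the tRNAs ran from 0.0989% (MT-TS1) to 16.9% (MT-TC) in the library labelled VCP knockdown.

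The ratios of the tRNAs ran from 0.812 (MT-TS1) to 1.11 (MT-TQ), with a median log2 ratio of -0.06, and 16 of 22 were below 1. With 4 counts taken as 1 fragment, as in longer rows, 21 of 22 intervals held 1, and that of the glutamate gene MT-TE, 0.859 [0.740 to 0.997], did not. Low counts of rows under 80 bases pile up at 1 and not at 4 (193 rows at 1 count and 8 at 4 in the library labelled VCP knockdown). With 1 count taken as 1 fragment, an alternative added after this was seen, 16 intervals held 1. MT-TY, MT-TG (glycine), MT-TL2 (leucine), MT-TE and MT-TP (proline) then lay below 1, and MT-TL1 above it. Scaling also decided the direction of some. With median-ratio size factors 11 of 22 were below 0 on the log2 scale, the median was 0.0026, and MT-TA, MT-TN, MT-TY, MT-TK (lysine) and MT-TS2 (serine) changed sign.

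The tRNAs matched their neighbours in ratio only in part. Around MT-ND1, the tRNAs MT-TL1 (1.10), MT-TI (isoleucine, 1.06), MT-TQ (1.11) and MT-TM (methionine, 1.03) were all above 1. Past MT-CYB, MT-TT (threonine) was at 0.960 and MT-TP at 0.842. Between MT-ND4 and MT-ND5, at 0.782 and 0.781, the histidine gene MT-TH was at 1.09, MT-TS2 at 0.994 and MT-TL2 at 0.861. At the other end of the genome MT-TF (phenylalanine) was at 0.816 and MT-TV (valine) at 0.938, either side of MT-RNR1 at 0.905. In the cluster between MT-ND2 (0.955) and MT-CO1 (0.901), MT-TC was at 1.04, MT-TN at 0.991, MT-TA at 0.969, MT-TY at 0.961 and MT-TW at 0.943. The other ratios were 0.939 for MT-TD, 0.975 for MT-TK, 0.865 for MT-TG and 0.957 for MT-TR (arginine). Across the 22, rho between a tRNA's log2 ratio and the mean of its nearest mRNAs or rRNAs was 0.37, and with the start position it was -0.28. These are descriptions over genes that share reads with the genes beside them.

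The reading frames differ in how they end, a feature the choice of genes did not use. In 7 of the 13 the annotated transcript ends in a whole stop codon, and in the other 6 it ends in T or TA, which the poly(A) tail completes to a stop. The 6 are MT-ND1, MT-ND2, MT-ND3, MT-ND4, MT-CO3 and MT-CYB. Their ratios ran from 0.782 to 1.12, with a median log2 ratio of -0.14. Those with a whole stop ran from 0.756 to 0.925, with a median of -0.22, so the ranges overlapped. MT-CO1 and MT-ND6 end in AGA and AGG, which code for arginine in the cytosol. The last 24 bases of the highest and the lowest plus-strand mRNA by ratio and of MT-CO1 and MT-ND6 are shown from GENCODE 29 with the stop, or the part of it that is encoded, in capitals. They lie at chrM:4239-4262, chrM:14125-14148 and chrM:7422-7445 on the plus strand and at chrM:14149-14172 on the minus strand.
MT-ND1: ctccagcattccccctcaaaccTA
MT-ND5: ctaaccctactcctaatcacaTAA
MT-CO1: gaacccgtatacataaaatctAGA
MT-ND6: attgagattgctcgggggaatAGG

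Each respiratory complex holds subunits from both genomes, apart from complex II, and the medians of the nuclear subunits were above those of the mitochondrial mRNAs. The 7 mitochondrial mRNAs of complex I had a median log2 ratio of -0.31, and the 37 nuclear subunits of complex I had 0.13. For complex III, MT-CYB had -0.32 and the 9 nuclear subunits a median of 0.09. For complex IV the 3 mitochondrial mRNAs had -0.15 and the 11 nuclear subunits 0.07, and for complex V the 2 mitochondrial mRNAs had -0.17 and 15 nuclear subunits 0.06. Of 17 listed nuclear subunits of complex V, ATP5MJ and ATP5MK were not matched to a row and were not analysed here. Complex II, succinate dehydrogenase, has no mitochondrial gene, and its 4 subunits had a median of 0.09. Of the 72 nuclear subunits of complexes I, III, IV and V, 50 were above 0 and 22 below, and 0 were at least 1.5-fold higher or lower, against a background of 4.53% and 5.87%. Their median, 0.08, was near that of the 1728 measured nuclear genes with a transcript as long as the mitochondrial mRNAs, 0.09, of which 38.7% were below 0. The highest were NDUFB8 (0.46), NDUFA3 (0.46) and NDUFA6 (0.45), accessory subunits of complex I. The lowest were also of complex I, NDUFA13 (-0.46), NDUFA7 (-0.45) and NDUFA12 (-0.43), and all 3 lay below the lowest mitochondrial mRNA, MT-ND6 (-0.40).

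In the other complexes, ATP5MC1, ATP5MC3 and ATP5MC2 encode the same mature c-ring protein of ATP synthase and lay apart, at 0.43, 0.19 and -0.33. UQCR10 (0.34) and UQCRQ (0.25) were highest in complex III and UQCRB (-0.16) and UQCRC2 (-0.09) lowest. In complex IV, NDUFA4 (0.20) and COX7B (0.16) were highest and COX7C (-0.30) lowest. SDHB, the iron-sulfur subunit of complex II, had 0.38 and SDHA, the flavoprotein, -0.04.

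Nuclear genes that transcribe, cut, stabilise and modify mitochondrial RNA, or copy mitochondrial DNA, lay on both sides of 1. Of 52 genes in 5 lists, 49 were measured, 32 were above 0 and 17 below, and 0 were at least 1.5-fold apart in either direction on the log2 ratio scale. Over all measured genes 52.8% were below 0, 5.87% were at least 1.5-fold lower and 4.53% at least 1.5-fold higher. The median of the lists was 0.08, against -0.02 over all measured genes. It was 0.24 over the listed genes that reached FPKM 5, and no median over all genes was computed at that limit. In the transcription list (8 of 9 measured, median 0.04) the RNA polymerase gene POLRMT had FPKM 28.8 against 24.1, a ratio of 1.20 [1.14 to 1.26]. The initiation factor gene TFB2M had 11.3 against 8.66, a ratio of 1.31 [1.13 to 1.51]. TFAM, which packages mitochondrial DNA and helps to open its promoters, had 5.48 against 5.68, a ratio of 0.966 [0.863 to 1.08]. The elongation factor gene TEFM had 3.22 against 2.91, a ratio of 1.11 [0.888 to 1.37]. The termination factor gene MTERF1 stayed under an FPKM of 1, at 0.982 against 0.734. MTERF2 had the lowest log2 ratio of this list, -0.15.

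The processing list had 9 of 10 genes above 0 and a median of 0.21. ELAC2, the enzyme that cuts the 3' end of tRNAs, had FPKM 8.75 against 5.95, a ratio of 1.47 [1.35 to 1.60]. The 3 subunits of the enzyme that cuts the 5' end had ratios of 1.27 [1.08 to 1.499] for TRMT10C, 1.295 [1.23 to 1.36] for HSD17B10 and 1.07 [0.946 to 1.20] for PRORP. FASTKD5, which acts on junctions that lack a tRNA, had 1.32 [1.15 to 1.52]. FASTKD2, which binds MT-RNR2, was the one gene of the list below 0, at 1.20 against 1.55, a ratio of 0.778 [0.656 to 0.920].

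Among 8 stability and decay genes (median 0.20), members of 1 complex lay on both sides of 1. LRPPRC, which binds and protects mitochondrial mRNAs, had FPKM 6.57 against 8.71, a ratio of 0.754 [0.702 to 0.808], the lowest of the list. Its partner SLIRP had 9.92 against 7.74, a ratio of 1.28 [1.13 to 1.46]. The helicase gene SUPV3L1 had 12.8 against 8.58, a ratio of 1.49 [1.36 to 1.63], and PNPT1, the nuclease it works with in RNA decay, 1.01 [0.889 to 1.15]. The poly(A) polymerase gene MTPAP was at 0.990 [0.891 to 1.10], and GRSF1, an RNA-binding protein of mitochondrial RNA granules, at 1.13 [1.06 to 1.20].

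In the modification list (13 of 15 measured, median 0.0040) the 3 listed methyltransferase genes for MT-RNR2 lay above 1. They were MRM3 at 17.4 against 11.7, a ratio of 1.48 [1.32 to 1.66], MRM1 at 1.41 [1.25 to 1.60] and MRM2 at 1.41 [1.25 to 1.59]. PUS1 (-0.20), TFB1M (-0.08) and RPUSD4 (-0.07) were lowest by log2 ratio. The 10 genes of mitochondrial DNA replication and nucleotide supply had a median of 0.06. The helicase gene TWNK had 5.68 against 3.91, a ratio of 1.45 [1.27 to 1.68], and RNASEH1 and SSBP1 had log2 ratios of 0.36 and 0.28. RRM2B, a ribonucleotide reductase subunit for cells outside S phase, had 1.25 against 2.36, a ratio of 0.530 [0.430 to 0.652] and a log2 ratio of -0.58, just short of 1.5-fold on that scale. MGME1 (-0.23) and TK2 (-0.10) followed. The number of mitochondrial genomes per cell was not measured, so fewer genomes and less RNA per genome cannot be told apart, nor, in bulk RNA, can fewer cells of a kind and less RNA per cell.

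**Figure D4:**
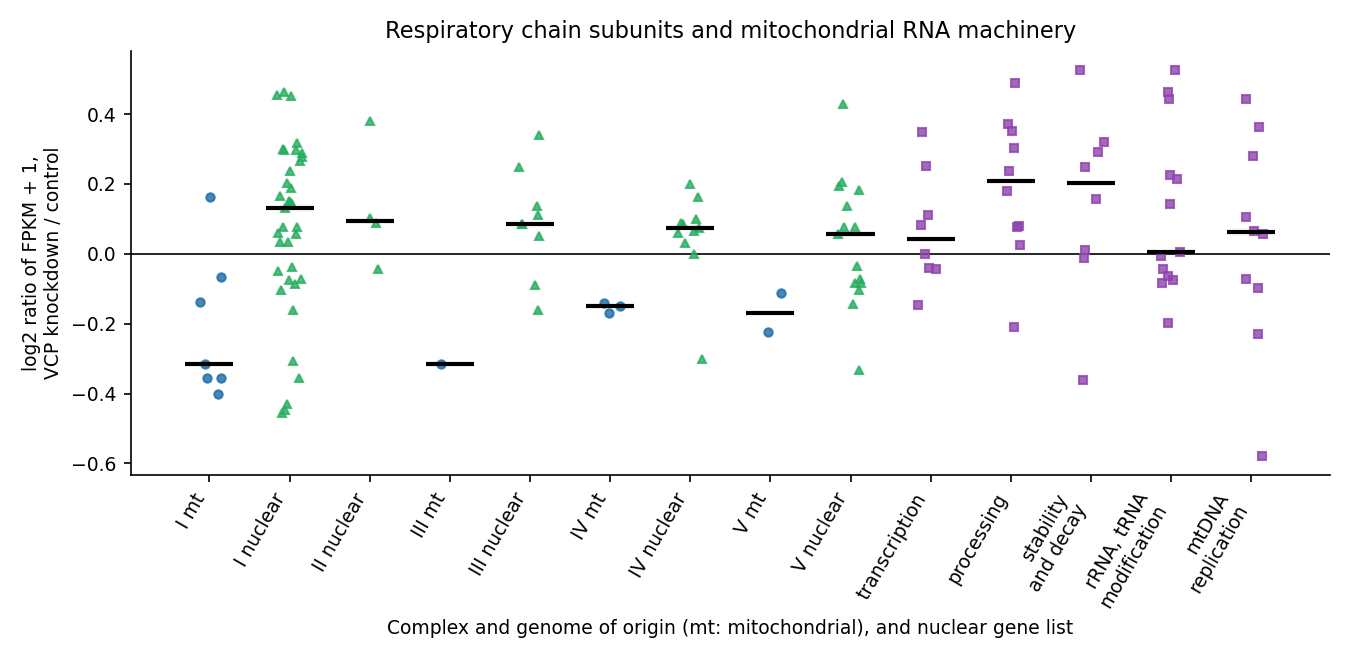
Log2 ratio of FPKM + 1 between the libraries for each measured subunit of complexes I to V, split by mitochondrial (circles) and nuclear (triangles) genes, and for 5 lists of nuclear genes acting on mitochondrial RNA and DNA (squares); bars are medians. The medians of the mitochondrial subunits lie between -0.32 and -0.15 and those of the nuclear subunits between 0.06 and 0.13.

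Within the mitochondrial mRNAs the order of levels was nearly the same in both libraries. The 9 mRNAs other than MT-ND1, MT-ND2, MT-ND3 and MT-ND4L kept their rank, and each of these 4 moved by 1 place. As a share of summed mitochondrial mRNA FPKM, MT-ND1 had 3.81% against 2.98% and MT-ND2 6.32% against 5.80%. MT-ND4 had 7.25% against 8.12%, MT-ND4L 6.16% against 6.70% and MT-CYB 5.07% against 5.53%. These shares do not depend on how the libraries are scaled to each other, and the mRNAs from MT-ND4L on had smaller shares in the library labelled VCP knockdown. So did MT-ATP8, further up the plus strand, at 16.6% against 16.9%.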

How the data were processed

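RNA of 1 library labelled VCP knockdown and 1 labelled control was analysed. The deposited table pairs FPKM, scaled by the authors to length and library size, with deposited counts, which are whole numbers per gene. Per the submitters' processing notes HISAT2 2.0 and StringTie 1.3.0 were used, with no role given; the build, annotation and strand setting are not given in the sources used here. All 37 members and the 6 named copies have the position of GENCODE 29, so coordinates are GRCh38. Rows with a count of 0 were set to FPKM 0, and rows sharing a symbol were summed. For the mRNAs and rRNAs, counts divided by FPKM and length gave 1 constant per library, so FPKM ratios are count ratios times 1.05.

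In long rows (at least 1 kilobase) low counts pile up at 4 (845 rows at 4 counts, 198 at 3 and 137 at 5 in the library labelled VCP knockdown), so intervals (exact conditional binomial, 95%) took 4 counts as 1 fragment. Members and lists were chosen with earlier results of these data known. Named were all members, the copies with the 5 highest FPKM, up to 3 highest and 3 lowest genes of each list, and 15 named regulators. Identity came from global alignment of GENCODE 29 transcripts. Only the interval and the fold limit were tested on simulated data, which assumed independent fragments and 4 counts per fragment. Versions were Biopython 1.88, scipy 1.17.1, matplotlib 3.10.9, pandas 2.3.3 and numpy 2.4.6, under Python 3.11.15. Alternatives were 2 pseudocounts, 3 rescalings, 2 count scales, 2 filters, a 2-fold limit and nuclear copies summed. Chosen after seeing the data were 1 count per fragment for tRNAs, the nuclear genes matched on level, length and GC content, MTCO2P12, the division of the plus-strand mRNAs into sets of 4, the order sum with copies and the rescaled counts of all genes past a fold. One further list of marker genes is not reported here.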

Additional observations from a re-analysis of the deposited data

How the results depend on the processing

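No paired analysis was possible because there was 1 library a group, which also meant that none could be omitted. The median log2 ratio of the mitochondrial mRNAs, -0.17, was -0.14 after rescaling to the same summed FPKM, -0.15 after rescaling to a median ratio of 0, -0.20 after rescaling to the same sum outside the mitochondrial genome and -0.11 with median-ratio size factors. That of the rRNAs, -0.37, was -0.35 with the same summed FPKM, -0.40 with the same sum outside the mitochondrial genome and -0.31 with median-ratio size factors. The median of the last 4 plus-strand mRNAs minus that of the first 4, sets made after the values were seen, was -0.23, and -0.20 with nuclear copies. The 9 minus-strand members had -0.06, and 0.0053 with median-ratio size factors. The count of genes at least 1.5-fold lower, 684, was 1351 with a pseudocount of 0.1, 141 with 5, 1100 with CPM from the counts and 153 at 2-fold. The count of higher genes, 528, was 163 with a pseudocount of 5 and 122 at 2-fold. The members' share was 23.4% and 26.2% of summed FPKM and 6.90% and 8.02% of summed counts, in the libraries labelled VCP knockdown and control. Of 272 recomputed values of single members, 219 stayed within their counting interval and 53 moved beyond it. The sign of an mRNA or rRNA changed under none of the 7 scales or with copies, and those of MT-TN and MT-TS2 changed under 3. The cause of these differences was not tested.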
